A study of Rattus norvegicus with 8 samples.

Results

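Microglia, the resident macrophages of the brain, carry a set of genes that mark their surveying, homeostatic state. A set of 9 such genes was chosen by name, with their measured values already known. They are Tmem119, P2ry12, Cx3cr1, Csf1r, Aif1, Trem2, Tyrobp, Itgam and Selplg. Every transcript row of the deposited hippocampal RNAseq table that carries one of these symbols was taken. This gave 11 rows of 16266, with Aif1 and Csf1r listed on 2 rows each and the other genes on 1. All 11 rows were at 1 FPKM or more in both groups. FPKM counts fragments per kilobase of transcript, scaled to the size of the library, so levels can be compared between genes.

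The table comes from whole hippocampi of 8 male rats whose adrenal glands had been removed (ADX), so neither group made its own adrenal corticosterone. After surgery all rats had drunk saline with corticosterone, which was replaced by plain saline before the experiment. At ZT 2, that is 2 h after lights on, 4 rats were infused for 30 min with vehicle, 0.45% saline, and 4 with 0.75 mg/mL corticosterone (CORT) held in the carrier 2-hydroxypropyl-β-cyclodextrin, and the tissue was taken 2 h after the hormone was given. The labels give an age of 3 to 4 months, where the methods give a younger age in weeks. They give the strain Sprague-Dawley, where the methods name Lister hooded, and the vehicle samples are titled as untreated. The labels describe the vehicle as saline, without the carrier. The question was which hippocampal genes respond to the hormone in rats without adrenal glands. If the vehicle held no carrier, the hormone and its carrier cannot be told apart in this contrast.

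Each group has 1 authors' FPKM value per transcript, estimated from its 4 rats together. The spread between rats is not in these values, so no test between the groups was run, no value has an error, and whether the groups overlap cannot be read. A log2 ratio is CORT over vehicle without a pseudocount, and a row is counted as higher or lower when it passed 1.5-fold, a log2 ratio of 0.58. Neuronal transcripts were abundant, with Snap25, a presynaptic fusion protein, at 1178 and 1155 FPKM and Nrgn, a postsynaptic calmodulin-binding protein, at 1137 and 1254. Median FPKM over all rows was 9.22 with vehicle and 9.38 with CORT.

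Microglia sense their surroundings through receptors that fall into a few classes. Csf1r binds the growth factors Csf1 and Il34 and is needed for microglial survival, Cx3cr1 binds the neuronal chemokine Cx3cl1, and P2ry12 detects adenosine diphosphate and steers microglial processes. Trem2 binds lipids and lipoproteins and signals through the membrane adaptor Tyrobp. Tmem119 is a membrane protein widely used to tell microglia from other brain macrophages, and its role in microglia is not well defined.

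Tmem119, on chromosome 12 of rn6 at chr12:48598646-48605704, was at 5.72 FPKM after vehicle and at 11.2 after CORT. Its log2 ratio of 0.96, 1.95-fold, was the only one among the 11 rows to pass 1.5-fold in either direction. Over all rows of the table, 4.21% were higher and 4.91% were lower past 1.5-fold. Low rows scatter more, so the 9018 rows with a mean of 5 to 60 FPKM over both groups, a range that was set after the members' levels were seen and that holds 10 of the 11 rows, serve as a closer background. Among them 1.63% were higher and 1.46% were lower past 1.5-fold. A ratio as high as that of Tmem119 was found in 329 rows of the whole table (2.02%) and in 56 of the 9018 rows (0.621%). The genes were chosen with this contrast in view, so the ratio and its place in the background are descriptions.

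**Figure D1:**
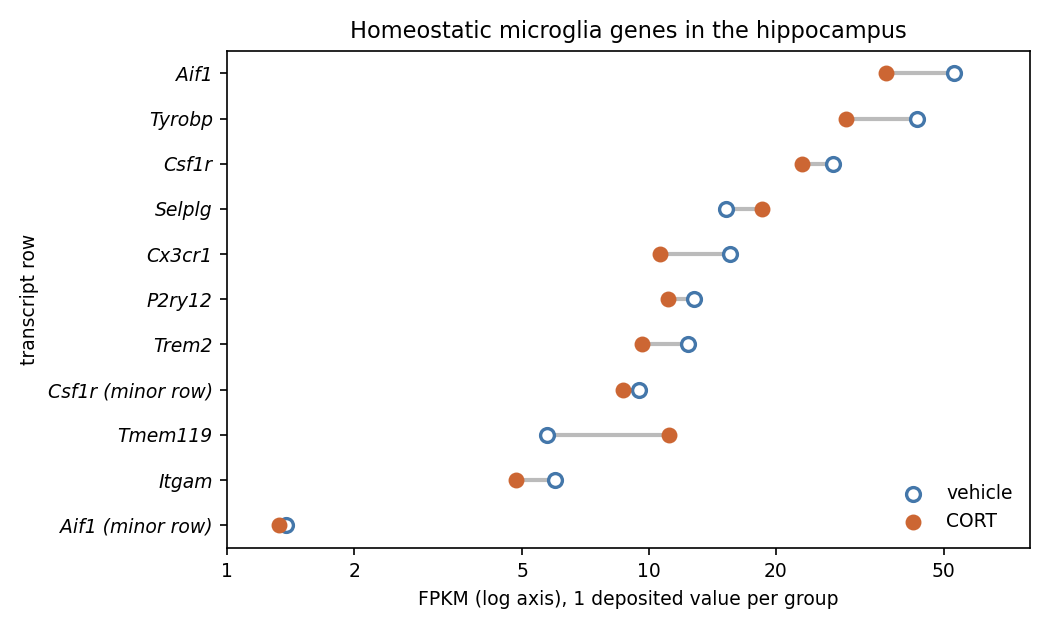
Level of each of the 9 genes in FPKM (log axis) in the vehicle group and the CORT group, with 1 point per group for each row and no error bars because the authors' values are 1 per group. Tmem119 went from 5.72 to 11.2 FPKM, Selplg from 15.2 to 18.5, and the rows of the other 7 genes were lower with CORT.

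The 2 intracellular and adaptor genes had the highest and second highest levels of the 9. Aif1, which encodes the calcium- and actin-binding protein Iba1, was at 52.9 FPKM in vehicle rats and at 36.4 in CORT rats on its major row (chr20:5161332-5166448). That is a log2 ratio of -0.54, or 1.45-fold lower. Tyrobp (chr1:88875374-88879303), the adaptor of Trem2 and related receptors, was at 43.3 and 29.4 FPKM, a log2 ratio of -0.56 and 1.47-fold lower. Both genes were thus lower by nearly the same ratio, although neither passed 1.5-fold. Ratios as low as those of Aif1 and Tyrobp were found in 1.71% and 1.62% of the rows with 5 to 60 FPKM.

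Among the surface receptors, Cx3cr1 (chr8:128740755-128754514) was at 15.6 FPKM after vehicle and at 10.6 after CORT. Its log2 ratio of -0.55 lay between those of Aif1 and Tyrobp. Trem2 (chr9:14611560-14618013) was at 12.4 and 9.61 FPKM, a log2 ratio of -0.37, so it was lower by less than its own adaptor. Itgam, the integrin chain CD11b of complement receptor 3 (chr1:199495297-199623960), was at 5.98 and 4.84 FPKM, a log2 ratio of -0.31. Csf1r (chr18:56414487-56458300) was at 27.4 and 23.1 FPKM on its major row, a log2 ratio of -0.25.

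P2ry12 was at 12.8 and 11.1 FPKM, a log2 ratio of -0.20, the value closest to 0 among the major rows. Its deposited locus (chr2:149213133-149494311) is 281 kb long and is shared with rows of P2ry13, P2ry14 and Med12l, so it spans a bundle of overlapping genes and not P2ry12 alone. P2ry13, a related receptor for adenosine diphosphate, was at 3.32 and 2.66 FPKM (log2 ratio -0.32) and P2ry14, a receptor for UDP-sugars, at 1.20 and 1.56 (0.37). How fragments were divided among these overlapping rows cannot be checked from the table. No other member shares its locus with another gene's row, but transcripts whose test failed had been removed and would not be seen. The locus of Itgam is also long, at 129 kb, and whether it spans other genes cannot be read from the rows.

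Selplg, the mucin-like ligand of the selectins (chr12:48577904-48579196), was the other gene with a positive ratio. It was at 15.2 FPKM in vehicle rats and at 18.5 in CORT rats, a log2 ratio of 0.28 and 1.22-fold. A ratio at least as high was found in 7.15% of the rows with 5 to 60 FPKM, so its value is less far out than that of Tmem119.

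Of the 11 rows, 9 had a log2 ratio below 0 and 2 above it. Of all rows in the table, 44.98% were below 0, and among rows with 5 to 60 FPKM 42.0%. The median over the 10 rows other than Tmem119 was -0.28, against 0.02 over all rows (quartiles -0.11 and 0.14) and 0.03 over the rows with 5 to 60 FPKM (quartiles -0.07 and 0.12). At a lower threshold, a log2 ratio of 0.32, 4 of the 11 rows were lower, those of Cx3cr1, Aif1, Trem2 and Tyrobp, and 1 was higher, that of Tmem119. At that threshold 10.8% of all rows were lower and 9.54% were higher, and of the rows with 5 to 60 FPKM 4.79% and 5.28%. None of the 11 passed 2-fold, which 2.03% of all rows passed as lower and 1.92% as higher. Aif1, Cx3cr1 and Tyrobp lay just inside 1.5-fold, so a common shift of the scale moves them across it. When each group was rescaled to the same FPKM sum, which moved every ratio by -0.09, these 3 genes passed 1.5-fold as lower. When the sum was taken without the 5S ribosomal RNA rows, a choice made after the values were seen, none of them did. The rescaling shifts all rows alike, and the share of all rows past 1.5-fold after it was not computed.

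**Figure D2:**
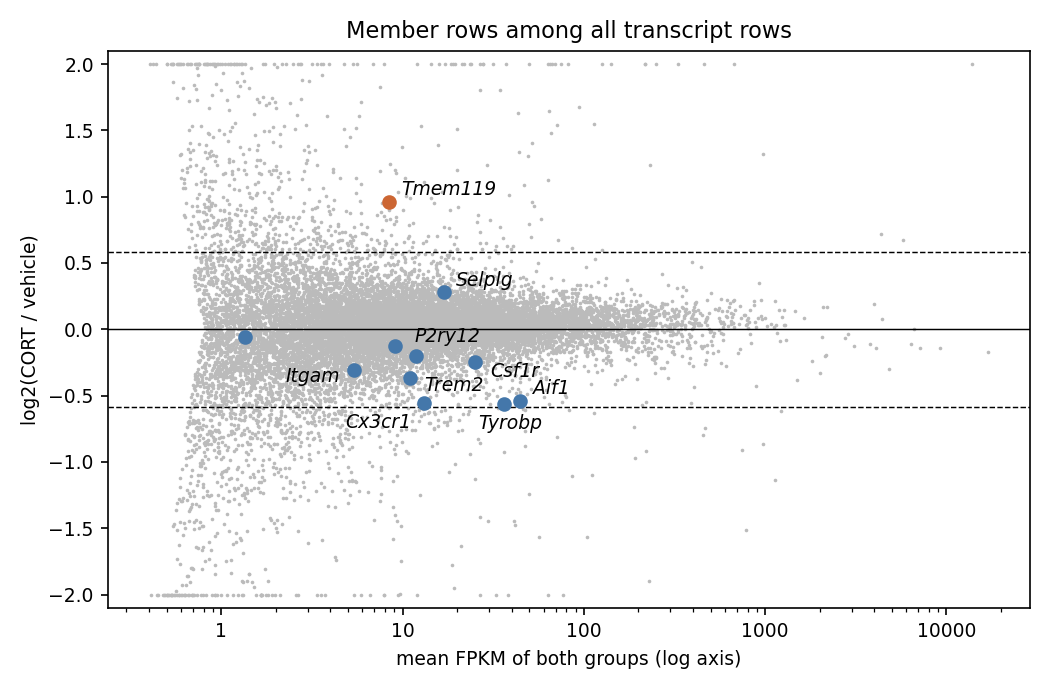
Log2 ratio of CORT over vehicle against the mean FPKM of both groups (log axis) for all 16266 rows (grey), with Tmem119 in orange, the other 10 member rows in blue and dashed lines at 1.5-fold. The 177 rows beyond a log2 ratio of 2 in either direction are drawn at the edge. Tmem119 stands above the upper line, and Aif1, Cx3cr1 and Tyrobp lie just above the lower one.

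The minor transcripts of Aif1 and Csf1r were closer to 0 than the major ones. The minor Aif1 row was at 1.38 and 1.33 FPKM (log2 ratio -0.05) and made up 2.54% of the gene's summed FPKM with vehicle and 3.52% with CORT. The minor Csf1r row was at 9.48 and 8.67 FPKM (log2 ratio -0.13), or 25.7% and 27.3% of the sum. With both rows added, Aif1 was at 54.2 and 37.7 FPKM and Csf1r at 36.8 and 31.7 FPKM, log2 ratios of -0.52 and -0.22, so adding the minor row moved each gene's ratio little. The 2 rows of a gene share exons, and how the authors' tool divided fragments between them was not checked.

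The order of the genes by level differed between the groups, mainly in the places of Tmem119 and Cx3cr1. With vehicle the order from the highest was Aif1, Tyrobp, Csf1r, Cx3cr1, Selplg, P2ry12, Trem2, Itgam and Tmem119. With CORT it was Aif1, Tyrobp, Csf1r, Selplg, Tmem119, P2ry12, Cx3cr1, Trem2 and Itgam, so Tmem119 stood in place 5 instead of 9 and Cx3cr1 in place 7 instead of 4. Neighbours such as Tmem119 at 11.2 and P2ry12 at 11.1 FPKM with CORT were nearly equal, and without a spread over rats their order cannot be ranked. Taking 1 row per gene, the 9 genes summed to 191 FPKM after vehicle and to 155 after CORT, and Tmem119 made up 2.99% and 7.21% of these sums. Aif1 went from 27.6% to 23.5% of the sum, Tyrobp from 22.7% to 19.0% and Selplg from 7.97% to 11.99%. The share of Itgam, 3.13%, was the same in both groups to 3 digits.

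Ratios between genes within a group do not depend on how the groups were scaled. Tmem119 stood at 0.132 of the level of Tyrobp with vehicle and at 0.380 with CORT, a log2 difference of 1.52. The ratio to Cx3cr1 went from 0.368 to 1.05, also a log2 difference of 1.52, so Tmem119 was well below that receptor in the vehicle group and level with it in the CORT group. The smallest difference was that to Selplg, from 0.375 to 0.602 (log2 0.68). The remaining 5 genes gave log2 differences from 1.17 for P2ry12 to 1.4997 for Aif1. Tmem119 was higher with CORT against each of the 8 other genes, which restates that it had the highest log2 ratio of the set.

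Tmem119 and Selplg, the genes with positive ratios, lie beside each other on chromosome 12, with 19.4 kb between their loci. The surrounding rows were therefore examined. Within 250 kb of Tmem119 the table holds 10 rows, of which 9 had a log2 ratio above 0, with a median of 0.11 and a range from -0.52 to 0.29. Of all 16266 rows, 8948 were above 0, and their upper quartile was 0.14. The window was examined because 2 positive members were known to lie in it, so these values are descriptions. None of the 10 passed 1.5-fold. Selplg and Ssh1, a cofilin phosphatase that went from 2.76 to 3.37 FPKM (log2 ratio 0.29), had the highest ratios, and Wscd2, at 11.8 and 14.2 FPKM, was at 0.26.

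The row on the other side of Tmem119, at 15.7 kb, was Iscu, the scaffold for iron-sulphur cluster assembly, at 112 and 117 FPKM (log2 ratio 0.06). Sart3, a splicing factor, was at 15.6 and 16.3 FPKM (0.07), and Ficd, an enzyme that modifies the chaperone BiP, was at 10.001 and 11.2 FPKM (0.16). Coro1c, an actin-binding coronin, was at 43.6 and 44.8 FPKM (0.04), Usp30, a mitochondrial deubiquitinase, at 21.2 and 22.0 FPKM (0.05) and Svop, a synaptic vesicle protein, at 68.4 and 75.9 FPKM (0.15). The single row below 0 was Cmklr1, the chemerin receptor, at 1.89 and 1.32 FPKM (-0.52). The log2 ratio of Tmem119 thus stood apart from those of the genes around it.

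Over both conditions, the 3 rows whose pair of log2 FPKM values lay closest to that of Tmem119 were Zbtb16, Il6r and Daglb. Zbtb16, a zinc finger transcription factor that is itself in the list of glucocorticoid-responsive genes used below, was at 5.88 FPKM after vehicle and at 11.0 after CORT. Il6r, the receptor for interleukin 6, was at 6.14 and 10.9 FPKM, and Daglb, a diacylglycerol lipase, at 5.83 and 10.3 FPKM. Their log2 ratios were 0.90, 0.83 and 0.83. Likeness over 2 values is a description of level and ratio only.

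A list of 10 genes that respond to glucocorticoids in many tissues was read beside the members. The list was chosen with earlier results of these data known. The paper itself names Per1, Klf9, Sgk1 and Tsc22d3 as corticosteroid-controlled, partly from this experiment. The values of the list are therefore descriptions and not an independent check. All 10 had a log2 ratio above 0, and 9 passed 1.5-fold as higher. The share of genes higher past 1.5-fold was 1.92% with 1 row per symbol, and that of genes lower was 3.99%. The median of the list was 0.91, and the log2 ratios were 1.31 for Sgk1, 0.95 for Per1, 0.93 for Tsc22d3 and 0.86 for Fkbp5, the co-chaperone of the glucocorticoid receptor, which was at 18.6 and 33.8 FPKM. The ratio of Tmem119, 0.96, lay inside the range of this list, from 0.55 to 1.31, and the ratios of the 8 other microglial genes lay below it.

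Promoter sequences were looked up for the 9 genes among the RefSeq promoters of GRCr8, each of which runs from 250 bases before the start of a gene to 50 after it. Sequences were found for Itgam, Cx3cr1, Trem2 and Csf1r, and each had a log2 ratio below 0. Itgam and Trem2 are shown because they hold the short core GAGGAA bound by PU.1 (Spi1), the transcription factor that sets up the macrophage programme, in arrangements that differ. Capitals mark GAGGAA or, where the match is on the opposite strand, TTCCTC. Itgam (chr1:192089342-192089641 of GRCr8, + strand) has matches on both strands, starting at bases 100 and 212 of the 300, and Trem2 (chr9:20151730-20152029, - strand) has 1 on the opposite strand, starting at base 222.
Itgam: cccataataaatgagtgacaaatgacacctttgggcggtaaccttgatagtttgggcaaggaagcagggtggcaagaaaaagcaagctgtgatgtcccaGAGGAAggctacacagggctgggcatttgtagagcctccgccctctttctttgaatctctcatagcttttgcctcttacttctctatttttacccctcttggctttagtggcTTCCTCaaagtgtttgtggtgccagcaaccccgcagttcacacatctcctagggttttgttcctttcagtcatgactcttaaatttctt
Trem2: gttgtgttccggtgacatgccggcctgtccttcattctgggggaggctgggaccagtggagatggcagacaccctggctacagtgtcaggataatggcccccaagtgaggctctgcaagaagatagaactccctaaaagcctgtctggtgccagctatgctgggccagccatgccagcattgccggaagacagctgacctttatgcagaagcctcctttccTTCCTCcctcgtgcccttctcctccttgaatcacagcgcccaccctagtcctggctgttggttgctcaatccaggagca

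Searched on both strands, GAGGAA was present in 3 of the 4 promoters, those of Itgam, Trem2 and Csf1r, and in 27.6% of the 33469 promoters of the same length. The longer core GAGGAAGT, every match of which also holds GAGGAA, was in none of the 4 and in 2.42% of all promoters. TGTTCT, a single arm of the glucocorticoid response element, was in none of the 4 and in 20.7% of all. The whole palindromic element, 2 such arms facing each other, every match of which also holds TGTTCT, was in none of the 4 and in 0.0149% of all. These matches describe letters in a window and nothing further.

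Genes outside the 9 that are expressed by microglia were next taken from 4 lists, of other homeostatic genes, transcription factors of the myeloid lineage, pan-myeloid genes and genes of activated microglia. Together they hold 62 different genes with a row, of which 58 had a log2 ratio below 0. The median was -0.32, and 17 were lower and none was higher past 1.5-fold. With 1 row per symbol, 3.99% of all genes were lower and 1.92% were higher past 1.5-fold. Among the 33 of these genes under 10 FPKM with vehicle the median was -0.45 with 11 lower past 1.5-fold, and among the 29 at 10 FPKM or more it was -0.20 with 6 lower. All symbols at those levels had medians of -0.01 and 0.03, and their share past 1.5-fold at each level was not computed. Several of these genes, among them Cst3, Apoe and Ctsb, are also strongly expressed by astrocytes or neurons, so they do not track microglia alone.

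Of 20 other homeostatic genes, 17 had a row, 16 were below 0, and 1, Gpr34, was lower past 1.5-fold. Gpr34, a receptor for lysophosphatidylserine, was at 13.9 FPKM with vehicle and 8.62 with CORT (log2 ratio -0.69). Rgs10, a regulator of G protein signalling, was at 117 and 110.3 FPKM (-0.08). The median of the list was -0.23, against -0.34 over the 8 members other than Tmem119, both with 1 row per gene. Slc2a5, the fructose transporter, which is named after its value was seen, was the single gene of this list above 0, at 3.23 and 3.63 FPKM (0.17).

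Of 9 lineage transcription factors, 8 had a row and 6 were below 0, with a median of -0.34. Irf8, an interferon regulatory factor required for microglial development, was at 7.52 FPKM in vehicle rats and at 3.40 in CORT rats (log2 ratio -1.15), and it was the one factor lower past 1.5-fold. Spi1, which encodes PU.1, was at 3.14 and 2.14 FPKM (-0.56), and Sall1, which holds microglia in their resident state, was at 8.25 and 6.65 FPKM (-0.31). Mef2a, which is also expressed by neurons, was at 16.8 and 17.9 FPKM (0.09).

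Among the 25 pan-myeloid genes, all with a row, 24 were below 0 and 10 were lower past 1.5-fold, with a median of -0.45. Ptprc, the leukocyte phosphatase CD45, was at 1.79 and 0.617 FPKM (log2 ratio -1.53), and Ly86, a partner of the receptor Cd180, was at 6.09 and 2.41 FPKM (-1.34). The single gene above 0 was Ctss, the protease cathepsin S, at 139 and 144 FPKM (0.05). Cst3, the protease inhibitor cystatin C, was at 2278 and 1977 FPKM (-0.20). The chains of complement C1q, which in the brain are made mainly by microglia and are named after their values were seen, were at 71.8 and 67.4 FPKM for C1qa (-0.09), 55.6 and 49.996 for C1qb (-0.15) and 35.9 and 29.2 for C1qc (-0.30). Ctss, Cst3, C1qa and C1qb, among the most abundant genes of this list, were thus nearer to 0 than Ptprc and Ly86.

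Of 20 genes of activated or disease-associated microglia, 13 had a row and all 13 were below 0, 5 of them past 1.5-fold, with a median of -0.27. Spp1, the secreted phosphoprotein osteopontin, was at 16.7 FPKM after vehicle and at 2.23 after CORT, 7.47-fold lower. Lgals3, a galectin, was at 13.3 and 2.46 FPKM, 5.39-fold lower. Apoe, the main lipid carrier of the brain, was at 2913 and 2847 FPKM (log2 ratio -0.03), and Ctsb, cathepsin B, at 341 and 317 FPKM (-0.11). The rows of Spp1 and Lgals3 had the lowest ratios of the 62 genes, lower than that of any of the 9.

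**Figure D3:**
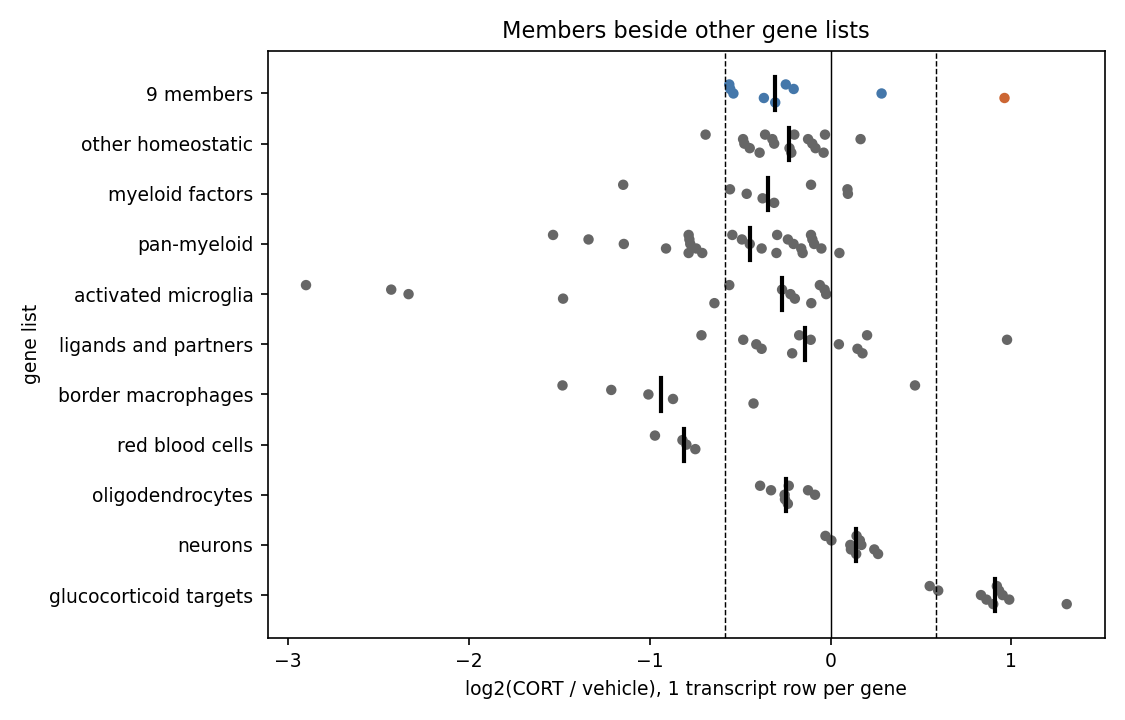
Log2 ratio of CORT over vehicle for each gene (1 row per symbol, points) in each list, with a bar at the list's median and dashed lines at 1.5-fold. Tmem119 lies to the right of the other members and of all genes in the microglial lists, and among the 10 glucocorticoid-responsive genes. Syk, in the list of ligands and partners, lies slightly further to the right. All lists drawn have medians below 0 except those of neurons and of glucocorticoid-responsive genes.

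The ligands and partners of the 9 genes did not share one direction, with 7 of the 12 that had a row below 0 and a median of -0.14. The neuronal ligand of Cx3cr1, Cx3cl1, was at 130 and 147 FPKM (log2 ratio 0.18), while its receptor was lower with CORT. Il34, the neuronal ligand of Csf1r, was at 25.2 and 29.0 FPKM (0.20). The other ligand of that receptor, Csf1, was at 4.08 and 3.52 FPKM (-0.21), and Itgb2, the chain that pairs with Itgam, was at 3.72 and 2.85 FPKM (-0.38). Csf1 and Itgb2 are named after their values were seen. The kinases were sparse, with Syk, which acts downstream of Tyrobp, at 0.724 and 1.42 FPKM (0.98) and Pik3cg, a kinase downstream of G protein-coupled receptors, at 1.41 and 0.862 (-0.71).

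Markers of some other cell types, but not of all, were also mostly lower with CORT, and their part in the result was not tested. Of 10 markers of macrophages at the borders of the brain, 6 had a row and summed to 11.7 FPKM in vehicle rats and 6.68 in CORT rats. Their median was -0.94 and 4 were lower past 1.5-fold, with the chemokine Pf4 at 6.63 and 2.86 FPKM (log2 ratio -1.21), the folate receptor Folr2 at 1.06 and 0.525 (-1.01) and the hyaluronan receptor Lyve1 at 1.27 and 1.75 (0.47). The markers Cd163, Ms4a7, Cbr2 and Siglec1 have no row. Pf4 is also a platelet chemokine, and P2ry12 is expressed by platelets. None of 6 platelet markers has a row, and transcripts whose test failed had been removed, so a part of platelets was not tested.

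Erythroid genes, which mark red blood cells and their precursors, were lower with CORT. The 4 with a row, of 7 listed, were all lower past 1.5-fold and summed to 1419 FPKM with vehicle and 812 with CORT. The globins Hba1, Hbb and Hba2 were at 583 and 347, 580.1 and 334, and 253 and 129 FPKM, and Alas2, the erythroid enzyme of haem synthesis, at 2.86 and 1.62 FPKM. Of 14 markers of blood leukocytes only 5 had a row. They summed to 69.4 and 59.3 FPKM, and most of that was Lyz2, a lysozyme that macrophages also make, at 52.6 and 41.7 FPKM (-0.33). The neutrophil gene S100a9 was at 3.43 and 5.43 FPKM (0.66), Plac8 at 3.93 and 1.37 (-1.52) and the T cell gene Cd3e at 5.27 and 5.03 (-0.07), so these markers had no common direction.

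Other non-neuronal lists also had medians below 0. The median was -0.82 for meningeal fibroblasts (3 of 6 lower past 1.5-fold), -0.35 for endothelial cells (0 of 7), -0.32 for mural cells (2 of 6), -0.24 for oligodendrocytes (0 of 8) and -0.09 for astrocytes (2 of 8). Gfap, the astrocyte filament protein, had the lowest ratio of the 8 astrocyte genes, at 970.0 and 517 FPKM (-0.91), and 3 of the 8 were above 0. Neuronal genes had a median of 0.14 with 9 of 10 above 0, and oligodendrocyte precursor genes one of 0.13 with 3 of 4 above 0, and none of these passed 1.5-fold. The choroid plexus list summed to 6719 and 6709 FPKM. Tmem119 is also expressed by osteoblasts, and of 5 osteoblast markers 1 had a row, Alpl, an alkaline phosphatase that brain vessels also make, at 1.06 and 2.00 FPKM (0.92). In whole hippocampus, fewer cells of a type and less RNA per cell cannot be told apart, and the make-up of the dissected tissue cannot be told apart from the treatment in values pooled over a group.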

How the data were processed

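RNAseq of whole hippocampus from 8 ADX rats, 4 with vehicle and 4 with CORT, was taken from the authors' deposited Cuffdiff table. Libraries were made with a stranded TruSeq protocol. Per the submitters' processing notes, CASAVA 1.8.2, TopHat2 2.0.10, Cuffdiff 2.2.0 and the rn6 genome were used. The authors' deposited FPKM values are 1 per transcript and group, normalized geometrically between libraries and corrected for multiply mapped reads, sequence bias and effective length, and transcripts whose test failed had been removed. Length correction allows levels to be compared between genes, and pooling over a group removes the spread between rats. The table's log2 fold changes, test statistics, p-values and q-values are the authors' own comparison and were not used. Reads per library cannot be read from FPKM, so the depth and the precision of a value are unknown. Columns of other samples were 0 in number.

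Log2 ratios were computed from the deposited FPKM values with Python 3.11.15, numpy 2.4.6 and pandas 2.3.3, and plots with matplotlib 3.10.9. For lists, a symbol was represented by its row with the highest mean FPKM. The computation was tested on simulated data. The members, the gene lists and the thresholds were chosen with earlier results of these data known. Named genes were all rows of the 9 members, from each list of microglial, partner and blood or macrophage genes the 2 with the highest mean and the 2 with the largest ratio among those at 1 FPKM or more in one group, the 3 rows closest to Tmem119, the rows within 250 kb of it and 4 glucocorticoid-responsive genes. One gene that this rule names is not reported here. From the lists of other cell types only Snap25, Nrgn, Gfap and Alpl are named. P2ry13 and P2ry14 are named because they overlap P2ry12, after their values were seen. Alternatives were pseudocounts, filters, other choices of transcript, scaling and other folds. Promoters came from RefSeq (GRCr8), whose coordinates were not mixed with those of rn6.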

Additional observations from a re-analysis of the deposited data

How the results depend on the processing

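No paired analysis was possible because the table holds 1 value per group and no value for a single rat. For the same reason leaving out a rat, a replicate block and a count test could not be run. Against the values without a pseudocount, adding 1 FPKM gave a log2 ratio of 0.85 for Tmem119 and a difference of 1.10 from the median of the other member rows, in place of 0.96 and 1.24. With a threshold at a log2 ratio of 0.32 (the lower of the alternative folds), 4 member rows and 6 other homeostatic genes were lower, in place of 0 and 1. Of all rows, 10.8% were lower at that threshold, in place of 4.91%. The share with 1 row per symbol was not computed there. With 2-fold, 0 members were higher and 0 other homeostatic genes were lower, in place of 1 and 1. Of all rows, 1.92% were higher and 2.03% were lower past 2-fold. With each group rescaled to the same FPKM sum, 3 members were lower past 1.5-fold, and leaving the 5S ribosomal RNA out of that sum, chosen after the values were seen, gave 0. The share of all rows past 1.5-fold after rescaling was not computed.

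The 2 filters on low FPKM left each of the following values as it was. Over the 9 alternatives of pseudocount, filter, transcript choice and scaling, these 2 included, none turned a direction, and the log2 ratio of Tmem119 ran from 0.85 to 0.96, its difference from the others from 1.10 to 1.30, the median of the others from -0.37 to -0.25 and that of other homeostatic genes from -0.32 to -0.20. The scaling choices shift all rows alike, so they could not change the difference of Tmem119 from the others. Tmem119 has 1 row, so the choice of transcript could not change its own ratio. All member rows were at 1 FPKM or more in both groups, so the filters could not change the members' values. The bounds cover processing choices only and not the spread between rats.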
